A study of Mus musculus with 4 samples.

Results

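The genes described here act in G2 phase and mitosis. They form a list of 56 genes, chosen by name and divided into 4 steps: 21 for entry into mitosis and chromosome condensation, 8 for the spindle, 16 for the kinetochore and its checkpoint, and 11 for exit and cytokinesis. Of the 56, 55 had a probe set whose annotation held their symbol alone, and each of these 55 passed the filter on dim probe sets in the average of all 4 arrays. Ccnb1, the main mitotic B-type cyclin, was not analysed here. The whole series gave 11270 named genes tested in the same way.

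Expression was measured on Affymetrix arrays in basal keratinocytes of the tail interfollicular epidermis of CD-1 mice. All mice carried a RosaYFP reporter that Cre switches on, and living YFP-positive cells with high alpha6 integrin and no surface CD34 were sorted. In K14CREER/RosaYFP mice (2 arrays) the tamoxifen-activated Cre was driven by the keratin 14 promoter, active in basal keratinocytes, after 1 ug of tamoxifen. In InvCREER/RosaYFP mice (2 arrays) it was driven by the promoter of involucrin, a protein of differentiating keratinocytes, after 10 ug, so that dose and line cannot be told apart. The sample titles give 3.5 days after induction and the treatment protocol 4 days. No label states whether arrays 1 and 2 of either line hold RNA of different mice or of pools. The p-values rest only on the spread within the pairs of arrays, which in K14CREER may be technical. For each probe set the test (limma) draws that spread towards the trend over all tested probe sets. The InvCREER arrays differed in Xist and Y-linked genes.

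Dividing cells pass from G2 phase into mitosis when cyclin-dependent kinase 1, bound to A- and B-type cyclins, becomes active. Chromosomes are then condensed, captured by spindle microtubules at their kinetochores, and released into anaphase once the spindle checkpoint is satisfied and the anaphase-promoting complex (APC/C) marks securin and cyclins for destruction. The mRNAs of most of these proteins are periodic: they accumulate late in the cell cycle and are low in resting cells. In the epidermis cell division is largely a property of the basal layer, and keratinocytes leave the cell cycle as they differentiate.

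Promoters of such genes are known to carry CCAAT boxes, bound by the factor NF-Y, and a cell cycle homology region (CHR), a short element close to the start of transcription that the DREAM and MuvB complexes bind. Windows of 250 bases before to 50 bases after the gene start were held by the RefSeq promoter table (GRCm38.p6) for 44 of the 56 members. The stretches below end just before the annotated start and are written 5′ to 3′ on the strand of the gene, with capitals for TTTGAA and CCAAT on either strand (TTCAAA and ATTGG on the other). Cdc20, Cdk1 and Ube2c show how both motifs are arranged in members from the entry and exit steps. Ccnb2 has 3 CCAAT boxes in this stretch with its TTTGAA matches outside it. Cks1b is a member with nearly equal values in both lines on its brightest probe set. A dimmer probe set of Cks1b was at -0.62 log2 units (InvCREER minus K14CREER). Birc5 is the member with the largest difference. These genes were chosen with these values and matches known.
Cdc20: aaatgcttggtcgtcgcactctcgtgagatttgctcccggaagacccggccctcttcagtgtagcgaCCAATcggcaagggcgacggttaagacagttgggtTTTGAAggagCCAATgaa
Cdk1: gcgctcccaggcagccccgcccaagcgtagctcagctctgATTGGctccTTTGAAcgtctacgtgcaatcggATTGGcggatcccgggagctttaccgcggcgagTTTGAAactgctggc
Ube2c: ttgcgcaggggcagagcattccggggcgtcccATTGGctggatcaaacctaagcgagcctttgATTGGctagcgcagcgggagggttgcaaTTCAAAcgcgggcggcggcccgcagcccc
Ccnb2: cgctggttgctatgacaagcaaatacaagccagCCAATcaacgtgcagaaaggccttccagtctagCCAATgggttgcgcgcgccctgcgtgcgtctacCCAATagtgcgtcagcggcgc
Cks1b: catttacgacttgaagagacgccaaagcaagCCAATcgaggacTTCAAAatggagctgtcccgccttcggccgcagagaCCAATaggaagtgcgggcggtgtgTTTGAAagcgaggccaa
Birc5: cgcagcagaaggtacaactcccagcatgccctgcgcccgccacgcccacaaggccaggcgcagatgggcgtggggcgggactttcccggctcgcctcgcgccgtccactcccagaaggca

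In GRCm38.p6 the Cdc20 stretch lies at chr4:118437344-118437463 (minus strand), Cdk1 at chr10:69352913-69353032 (minus), Ube2c at chr2:164769809-164769928 (plus), Ccnb2 at chr9:70421555-70421674 (minus), Cks1b at chr3:89418292-89418411 (minus) and Birc5 at chr11:117849117-117849236 (plus). All 6 are the promoter bases directly upstream of the annotated gene. Over the whole windows, TTTGAA was found on either strand in 31 of 44 members (70.5%), against 18.5% of 17492 protein-coding genes with a window. Most members that held it had it near the start of transcription: 28 of 44 (63.6%) had a match whose first base lay within 50 bases of the start, against 4.58% of protein-coding genes. The related hexamer TTCGAA, which reads the same on both strands, was found in 4 members (9.09%, against 2.13%), and 33 members held at least 1 of both hexamers. CCAAT was found in 34 members (77.3%, against 42.3% of protein-coding genes), and 24 (54.5%, against 14.6%) held at least 2 copies. One of the hexamers together with CCAAT occurred in 30 members (68.2%, against 8.22%). A single pair of matches of different motifs overlapped (1 pair). These are shares of letters in windows, not sites of binding.

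**Figure D1:**
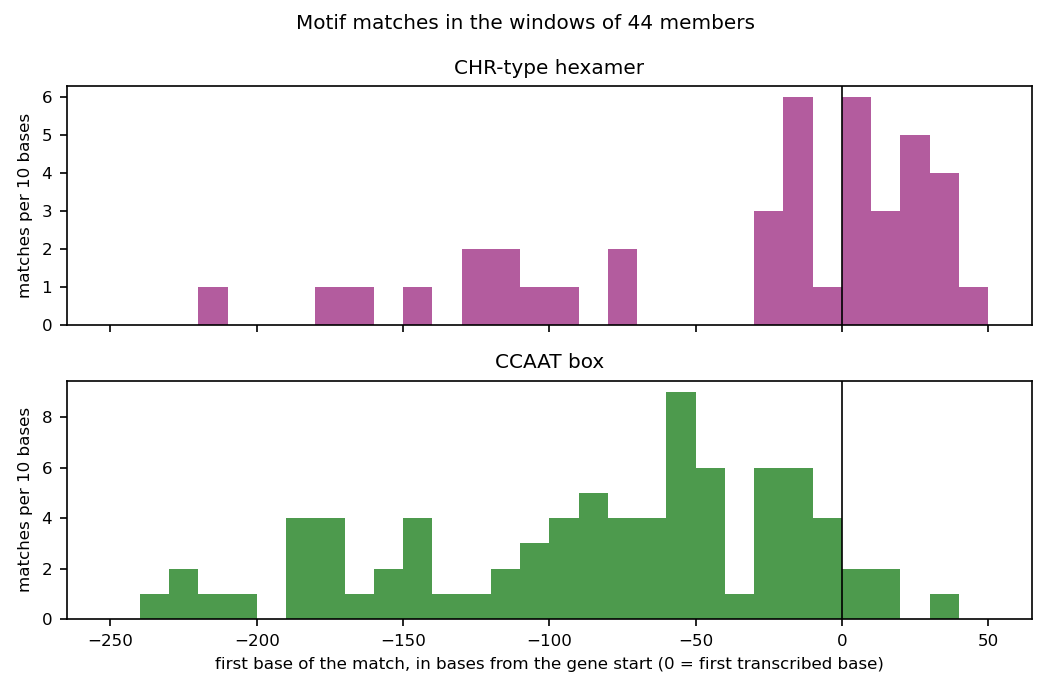
Histograms of the first base of each TTTGAA match (upper panel, CHR-type hexamer, 41 matches) and each CCAAT match (lower panel, 81 matches) in the windows of 44 members, in 10-base bins from the gene start. Of the TTTGAA matches 29 begin within 50 bases of the start and 19 begin after it, while 49 CCAAT matches begin in the 100 bases before it.

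Members with and without a motif had similar median differences between the lines. The 31 analysed members with TTTGAA had a median difference of -0.83 and the 12 without it -0.77, and with at least 1 CCAAT box the median was -0.79 (33 members) against -0.80 (10 members). No test was made of these medians. Neither hexamer and no CCAAT was found in the window of Birc5, Mad2l1, Melk, Ncaph, Nuf2, Nusap1 and Pttg1, and these had differences from -1.82 (Birc5) to -0.31 (Pttg1).

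In InvCREER cells the mitotic genes lay lower than in K14CREER cells as a body, by a narrow range of amounts, while no single one passed the test over the whole table. All values are log2 units of RMA signal, and a difference is InvCREER minus K14CREER. The median difference of the 55 genes was -0.80, which corresponds to 1.74-fold less signal, against -0.01 over the 11270 genes tested. Of the 55, 54 had a lower mean in InvCREER (51.8% of all genes tested) and 48 were at least 1.5-fold lower (8.73%). In 50 both InvCREER arrays lay below both K14CREER arrays (24.1%). With limma, 0 of the 55 reached a Benjamini-Hochberg adjusted p under 0.05 over all 22519 tested probe sets, a threshold passed by 0.959% of these probe sets and by 1.33% of the genes. At an unadjusted p under 0.05 there were 44 members, all lower (8.54% of genes). The adjusted p of the members ran from 0.0565 to 0.975, with a median of 0.243, and 4 were under 0.1 (4.23% of genes): Birc5, Top2a, Smc4 and Ube2c. In sorted cells in bulk, fewer cells in G2 and mitosis and less mitotic mRNA per cell cannot be told apart.

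The differences were alike from gene to gene. The middle 50% of the 55 lay between -0.91 and -0.73, a width of 0.18 against 0.43 for all genes tested, and 45 of 55 lay between -1 and -0.5, where 8.36% of all genes lay. Under -1 there were 7 members, and 3 lay above -0.5: Pttg1, Cks1b and Foxm1. By step the medians were -0.78 for entry (20 genes), -0.76 for the spindle (8), -0.79 for the kinetochore (16) and -0.90 for exit (11). No test was made between the steps.

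**Figure D2:**
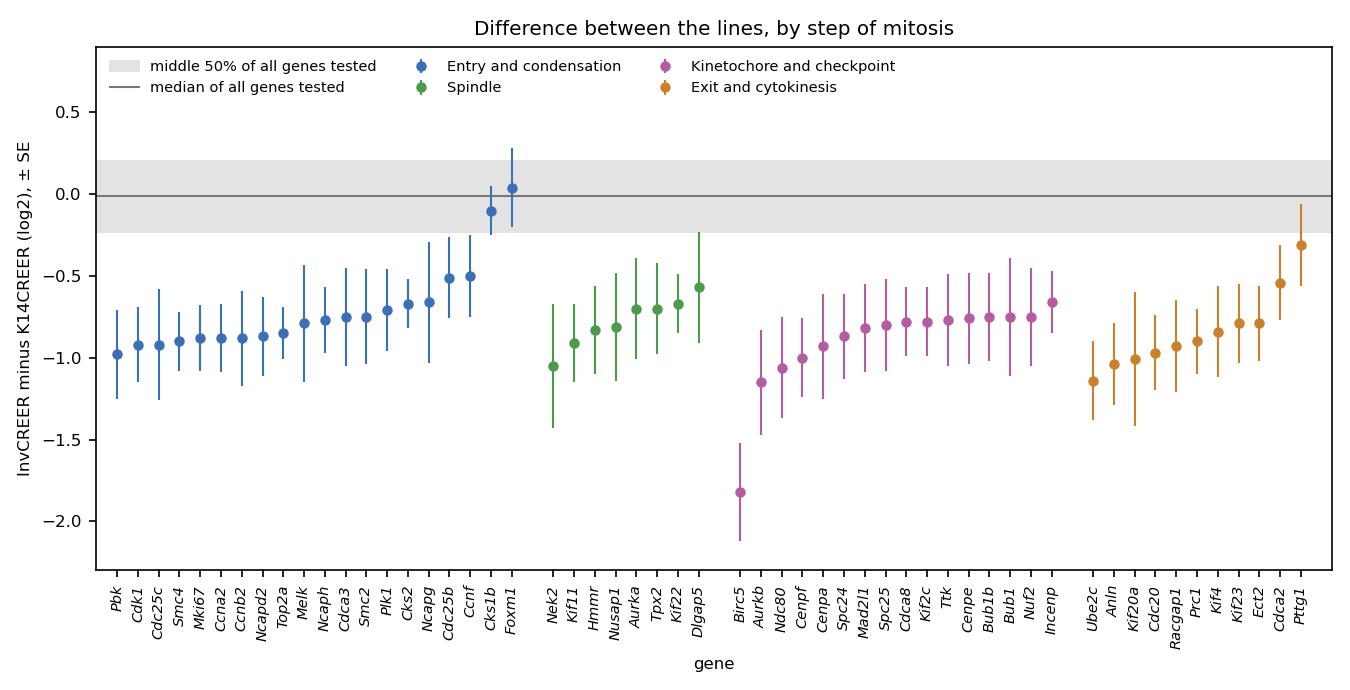
Line difference (log2, InvCREER minus K14CREER) and its moderated SE from limma for each of the 55 genes, ordered within each step; the grey band is the middle 50% of all genes tested (-0.23 to 0.20) and the grey line their median (-0.01). Birc5 stands lowest at -1.82, while Cks1b and Foxm1 lie within the band.

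The arrays of a line also differed among themselves in these genes. K14CREER 2 held the highest value of 52 members and InvCREER 1 the lowest of 48, and 44 members followed the order K14CREER 2, K14CREER 1, InvCREER 2, InvCREER 1, as did 9.02% of all genes tested. From each gene's own mean, the median deviation was 0.66 on K14CREER 2, 0.17 on K14CREER 1, -0.27 on InvCREER 2 and -0.54 on InvCREER 1. Array 1 minus array 2 had a median of -0.49 in K14CREER and -0.26 in InvCREER, against -0.04 and -0.05 over all genes tested. K14CREER 1 minus InvCREER 2, the nearest arrays of different lines, had a median of 0.46 and was above 0 in 52 of 55 members. The median difference was -0.57 without K14CREER 2 and -1.06 without K14CREER 1. Among the members given by array, K14CREER 2 moved several differences by over 1.5 times: without it Kif20a was at -0.46, Nek2 at -0.59, Cdc25c at -0.46, Nusap1 at -0.40, Bub1 at -0.38 and Dlgap5 at -0.12. Without K14CREER 1 Kif20a was at -1.56, Nusap1 at -1.22 and Dlgap5 at -1.02, and without InvCREER 1 Nek2 was at -0.70, Nusap1 at -0.51 and Bub1 at -0.39. In 45 members the difference between the lines was larger than the differences between the arrays within both lines. The shares of all genes tested for this count, and for the counts of 52 and 48 above, were not computed.

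**Figure D3:**
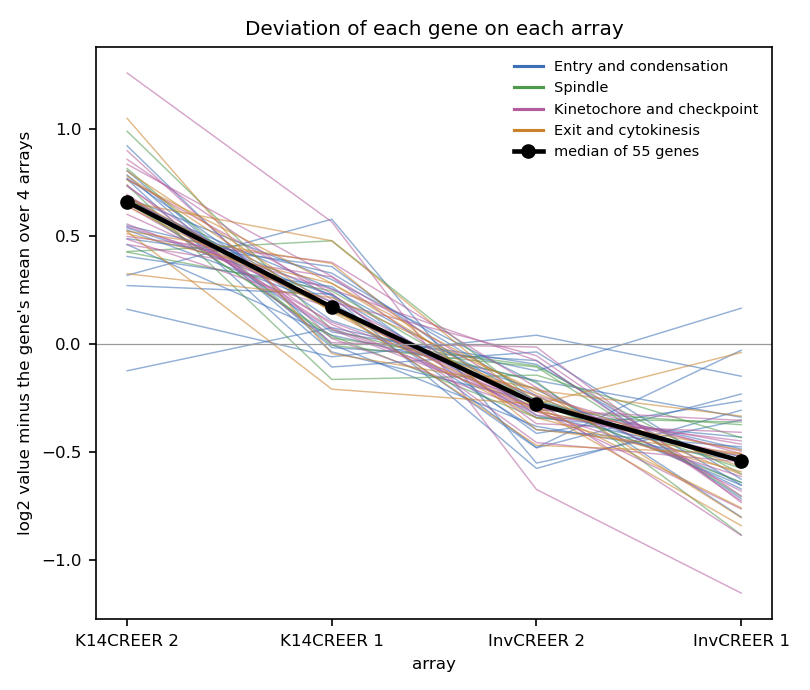
Each thin line is 1 of 55 genes and gives its log2 value on each array minus its mean over the 4 arrays, coloured by step; the black line is the median. The arrays are placed in order of that median, from 0.66 on K14CREER 2 to -0.54 on InvCREER 1, and both InvCREER arrays lie below both K14CREER arrays in 50 genes.

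InvCREER 1 stood apart in other respects. The excess of 3' over 5' signal, which grows as RNA degrades, was 1.24 log2 units in Actb (0.68 to 0.94 on the remaining arrays) and 0.74 in Gapdh (0.05 to 0.33). Marker lists are given as sums of log2 values over their genes with a probe set. Sebaceous gland markers (11 of 13 with a probe set, all above the filter) summed to 117.4 on InvCREER 1, 101.8 on InvCREER 2 and 81.8 to 87.8 in K14CREER. Langerhans cell markers (8 of 10 above the filter, with Ptprc and Tyrobp under it) summed to 76.8, 63.6 and 55.8 to 59.2. Both sums were higher on each InvCREER array than on either K14CREER array, and not on InvCREER 1 alone. Fibroblast markers (9 of 10 with a probe set) summed to 49.5 to 50.6 in InvCREER and 53.9 to 59.8 in K14CREER. Col1a1, Col3a1, Lum, Pdgfra and Dpt were under the filter. Of the 4 tested, Sparc was called lower at -2.36 and Dcn was at -1.87, while Col1a2 and Col6a1 overlapped. T cell markers (5 of 7 with a probe set) summed to 24.5 to 24.6 in InvCREER and 25.5 to 26.7 in K14CREER. Cd3g, Cd3d and Cd2 were under the filter, Thy1 was at -1.81 and Cd3e overlapped. The sums of the melanocyte, Merkel cell, endothelial and follicle lists overlapped between the lines. The Merkel cell sum was 38.3 on K14CREER 1 and 31.3 to 31.8 elsewhere. Of 6 follicle genes tested, 5 had higher means in InvCREER, while Lgr6 was called lower at -1.79. Xist was at 12.56 on InvCREER 1 and 5.44 to 8.26 elsewhere, and the Y-linked Uty at 4.70 against 7.19 to 7.85. The part of these in the differences of the mitotic genes was not tested. Without InvCREER 1 the median difference of the members was -0.69 and all 55 had a lower mean.

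Of the genes of the gate and the drivers, Krt14 was at 14.14 and 14.17 on the K14CREER arrays and 13.82 and 13.85 on the InvCREER arrays, and Itga6 at 12.38 to 12.41 in K14CREER and 11.62 to 11.77 in InvCREER. Cd34 and Ivl lay under the filter in their mean over the arrays, but Cd34 was at 6.07 on K14CREER 1 against 3.59 to 3.88 on the others, and Ivl at 6.23 on K14CREER 2 against 4.58 to 5.06. Basal markers (8 of 8 tested) had a median difference of -0.65, with 2 called lower. Of all genes tested, 1.33% were called in either direction. Of 11 suprabasal markers 9 were tested and all 9 were higher, with a median of 1.55 and 7 called. Ivl and Flg were under the filter, and Ivl was not higher in InvCREER. The summed values of all 11 were 108.1 to 110.7 in InvCREER against 93.0 to 95.7 in K14CREER. The part of these lists in the differences of the mitotic genes was not tested either.

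Entry into mitosis is driven by CDK1, the kinase subunit that starts mitosis. Cdk1 was at 10.07 and 10.47 on the K14CREER arrays and 9.16 and 9.55 on the InvCREER arrays. The lines did not overlap, and the difference of -0.92 (SE 0.23) had an adjusted p of 0.139 by limma. Its cyclin partners lay close to it, Ccna2 at -0.88 (SE 0.21) and Ccnb2 at -0.88 (SE 0.29). The small CDK-binding subunits divided: Cks2 was at -0.67 (SE 0.15), from 11.40 ± 0.11 to 10.73 ± 0.10 (SD, n = 2 per line). Cks1b, whose protein also serves the ubiquitin ligase SCF-Skp2, was at 11.17 and 11.39 on the K14CREER arrays and 11.08 and 11.27 on the InvCREER arrays. Its lines overlapped, at -0.10 (SE 0.15). A dimmer probe set of Cks1b was at -0.62 (SE 0.25) without overlap, so the probe sets of this gene disagreed in size.

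Among the activators of CDK1, the phosphatase gene Cdc25c was at 6.93 and 7.85 on the K14CREER arrays and 6.39 and 6.55 on the InvCREER arrays. That is a difference of -0.92 (SE 0.34) with a wide spread in K14CREER. Cdc25b was at -0.51 and Plk1, a kinase that acts from entry to cytokinesis, at -0.71. On the separate arrays Plk1 was at 8.08, 8.43, 7.67 and 7.42 (K14CREER 1 and 2, then InvCREER 1 and 2). Foxm1 encodes a transcription factor of G2 and M phase genes. Its brightest probe set showed no difference, with 7.49 and 7.29 on the K14CREER arrays and 7.58 and 7.29 on the InvCREER arrays, at 0.04 (SE 0.24). Its 2 dimmer tested probe sets were at -0.28 and -0.65, both without overlap, and none of the 3 was called. Foxm1 was the 1 member with a higher mean, and that direction turned with the mean of its probe sets, at -0.29.

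Mki67 encodes the Ki-67 protein that coats mitotic chromosomes and is the common marker of cycling cells. It was at 11.13 and 11.56 on the K14CREER arrays and 10.60 and 10.33 on the InvCREER arrays. The lines were separate, with a difference of -0.88 (SE 0.20, adjusted p = 0.108 by limma). The kinase gene Pbk was at 10.04 and 10.42 against 8.94 and 9.56, or -0.98 (SE 0.27), which was the largest difference of the entry step. Top2a, the topoisomerase that untangles sister chromatids, was at 10.94 and 11.07 against 10.06 and 10.25. Its arrays agreed closely within each line, and its difference of -0.85 (SE 0.16) had an adjusted p of 0.0759 by limma. A dimmer tested probe set of Top2a was at -0.52 (SE 0.27), also without overlap.

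Condensin I, the ring complex that compacts mitotic chromosomes, lay lower in all 5 subunit genes, from -0.90 for Smc4 to -0.66 for Ncapg. Of the 5, 4 did not overlap (24.1% of all genes tested). Smc4 was at 11.18 and 10.92 on the K14CREER arrays and 10.25 and 10.05 on the InvCREER arrays, a difference of -0.90 (SE 0.18, adjusted p = 0.0801 by limma). Its 2 other probe sets were at -0.81 and -0.79. Ncapg overlapped between the lines because K14CREER 1, at 7.34, lay under InvCREER 2, at 7.41. The subunits that are particular to condensin II, which is nuclear throughout the cell cycle, were nearer to 0: Ncapg2 at -0.50, Ncapd3 at -0.25 and Ncaph2 at 0.01. The complexes were not tested against each other.

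**Figure D4:**
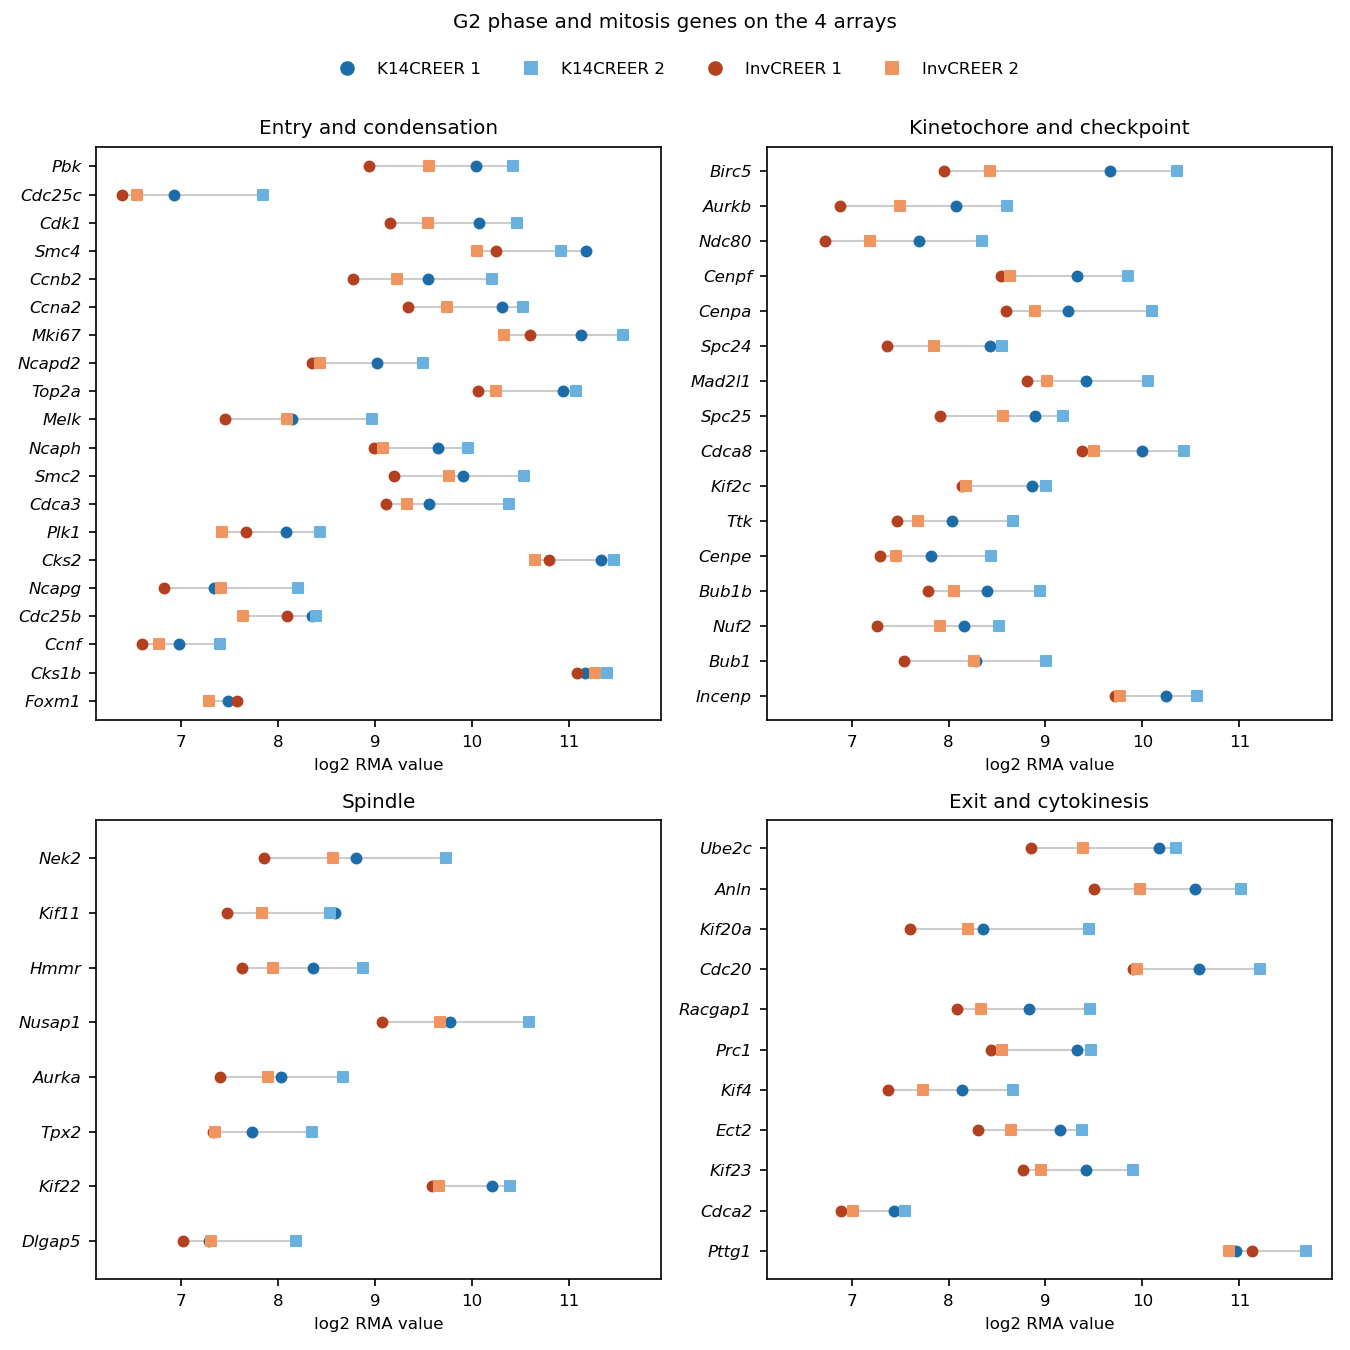
Log2 RMA values of each of the 55 genes on the 4 arrays, in 4 panels by step; circles are array 1 and squares array 2 of a line, blue for K14CREER and red to orange for InvCREER. Blue points lie to the right of red and orange points in 50 genes, with overlap in Foxm1, Cks1b, Ncapg, Dlgap5 and Pttg1.

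The 8 spindle genes all had lower means in InvCREER, and 7 did not overlap (24.1% of all genes tested). Nek2, a centrosome kinase, was at 8.81 and 9.73 on the K14CREER arrays and 7.86 and 8.57 on the InvCREER arrays. It gave the largest difference of the step, -1.05 (SE 0.38), and its arrays lay far apart within each line. Kif11, the motor that pushes spindle poles apart, was at 8.59 and 8.54 against 7.47 and 7.84. Here the K14CREER arrays were nearly equal, and the difference was -0.91 (SE 0.24, adjusted p = 0.147 by limma). Hmmr was at 8.36 and 8.88 against 7.63 and 7.95, or -0.83 (SE 0.27), and its 3 other tested probe sets lay between -0.88 and -0.45. Nusap1, a microtubule-bundling protein, was at 9.77 and 10.59 against 9.07 and 9.67, so that K14CREER 1 and InvCREER 2 were 0.10 apart. Aurka, the centrosomal Aurora kinase, and its activator Tpx2 were both at -0.70. The smallest differences were those of the chromokinesin gene Kif22, at -0.67 (SE 0.18), and Dlgap5, at -0.57 (SE 0.34). Kif22 was at 10.21 and 10.39 against 9.59 and 9.66, well separated for its size. Dlgap5 was at 7.29 and 8.19 against 7.02 and 7.31 and overlapped.

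All 16 genes of the kinetochore and its checkpoint had lower means and none overlapped (51.8% and 24.1% of all genes tested). The chromosomal passenger complex, which corrects faulty attachments and later guides cytokinesis, held the largest difference of all members. Birc5, which encodes its subunit survivin, was at 9.67 and 10.36 on the K14CREER arrays and 7.95 and 8.43 on the InvCREER arrays. This gene had only 1 probe set, so its values could not be compared with those of another. The nearest arrays of the lines were 1.24 apart, and the difference of -1.82 (SE 0.30) corresponds to 3.53-fold, with an adjusted p of 0.0565 by limma. Its adjusted p by limma ran over the alternatives from 0.00309 without InvCREER 2 to 0.156 without K14CREER 2. It was 0.0206 at a stricter filter, 0.0483 with quantile normalization, 0.0249 with the mean of probe sets, 0.0256 without InvCREER 1, 0.0864 without the variance trend and 0.0771 without K14CREER 1. Aurkb, the kinase of the complex, was at 8.08 and 8.60 against 6.88 and 7.50, or -1.15 (SE 0.32). Its remaining subunit genes were Cdca8 (borealin) at -0.78 (SE 0.21) and the scaffold Incenp at -0.66 (SE 0.19). Incenp was at 10.24 and 10.56 against 9.72 and 9.77, the smallest difference of the step.

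The NDC80 complex, which ties kinetochores to microtubules, lay between -1.06 for Ndc80 and -0.75 for Nuf2, with Spc24 at -0.87 and Spc25 at -0.80. Ndc80 was at 7.70 and 8.35 on the K14CREER arrays and 6.73 and 7.19 on the InvCREER arrays (SE of the difference 0.31). A dim probe set of Spc25 was at 0.08. The 4 checkpoint genes lay within -0.82 to -0.75: Mad2l1 at -0.82, Ttk at -0.77, Bub1b at -0.75 and Bub1 at -0.75. Bub1 was at 8.28 and 9.01 against 7.54 and 8.26. Its lines were 0.02 apart at the nearest arrays, so that its separation is slight. Of the centromere genes, Cenpf was at 9.32 and 9.85 against 8.54 and 8.63, with means of 9.58 ± 0.38 and 8.59 ± 0.06 (SD, n = 2 per line). Cenpa, the histone variant of centromeres, was at -0.93 and the motor gene Cenpe at -0.76. Kif2c, a depolymerising kinesin of centromeres, was at -0.78 (SE 0.21) on its brightest probe set and at -0.34 to -0.84 on the others tested.

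Exit from mitosis begins with the APC/C and its activator CDC20. Cdc20 was at 10.58 and 11.21 on the K14CREER arrays and 9.90 and 9.94 on the InvCREER arrays. The InvCREER arrays were nearly equal, and the difference was -0.97 (SE 0.23, adjusted p = 0.126 by limma). Ube2c, which supplies ubiquitin to the APC/C, was at 10.17 and 10.35 against 8.85 and 9.39, or -1.14 (SE 0.24, adjusted p = 0.0922 by limma). Pttg1 encodes securin, the APC/C target that holds separase inactive. It was at 10.96 and 11.69 against 11.13 and 10.89, with overlap and a difference of -0.31 (SE 0.25). Its 2 dimmer probe sets were at -0.51 and -0.54 and overlapped too.

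The genes of the central spindle and the contractile ring lay from -1.04 to -0.79. None of the 5 overlapped, against 24.1% of all genes tested that lay lower without overlap. Anln, which encodes the ring scaffold anillin, was at 10.54 and 11.02 on the K14CREER arrays and 9.50 and 9.97 on the InvCREER arrays, or -1.04 (SE 0.25), and its other probe set was at -1.10. Prc1, which bundles midzone microtubules, was at -0.90 (SE 0.20). The centralspindlin genes Racgap1 and Kif23 were at -0.93 and -0.79, and the RhoA activator Ect2 at -0.79. Kif20a, a midzone kinesin, was at 8.36 and 9.45 against 7.60 and 8.20, so that array 1 minus array 2 of K14CREER, -1.09, was as large as the difference between the lines, -1.01 (SE 0.41). Cdca2, which brings a phosphatase to chromatin at exit, was at 7.44 and 7.55 against 6.89 and 7.01, or -0.54 (SE 0.23), small but even.

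Most members were measured more than once. There were 125 probe sets for the 55 genes, of which 101 passed the filter, and 99 of these 101 had a lower mean in InvCREER. In 90 the lines did not overlap (22.1% of all tested probe sets), and 0 were called. In the 32 members with several tested probe sets, the differences spanned a median of 0.12, and in 30 of the 32 all were below 0. The widest spans were those of Spc25 (0.88), Foxm1 (0.69) and Cks1b (0.52). The size of the difference moved with brightness: the median was -0.21 for the 24 probe sets under the filter, -0.65 for 22 tested with a mean under 7, -0.78 for 47 with a mean from 7 to 9 and -0.82 for 32 at 9 or above.

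Lists of other cell division genes were read beside the members. Of 57 other mitosis genes tested, 54 had lower means and 40 did not overlap with InvCREER lower (24.1% of all genes tested). The 57 had a median of -0.63, and 0 were called. They were led by Cenpp (-1.22, SE 0.38), Wee1 (-1.21, SE 0.23), the kinase that holds CDK1 inactive, and Cdca5 (-1.08, SE 0.25), the cohesin protector sororin. All 33 S phase genes tested had lower means, at a median of -0.62, with 22 not overlapping (24.1% of all genes) and 0 called. Tk1, thymidine kinase, led them at -1.75 (SE 0.29, adjusted p = 0.0566 by limma). Both lists followed the members, at smaller medians.

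The lists of the APC/C, cohesin and the cell cycle transcription complexes had medians nearer to 0, but still below it. InvCREER lay lower without overlap in 9 of 15, 6 of 10 and 8 of 15 of their genes, against 24.1% of all genes tested. The 15 genes of the APC/C, with its activator gene Fzr1, had a median of -0.18 and a range from -0.44 to 0.19. At an unadjusted p under 0.05 by limma there were 0 APC/C, 3 cohesin and 2 transcription complex genes, all lower (8.54% of all genes). The 10 cohesin genes had a median of -0.23, with Pds5b lowest at -0.94. The 15 genes of the DREAM, MuvB and NF-Y complexes and their partners, whose promoter binding was not measured, had a median of -0.19. Of them Tfdp2 was at -0.81 and Rbl1 at -0.51, and 0 were called. Among 6 tested CDK inhibitors, Cdkn2b (p15) rose by 2.49 (SE 0.25, adjusted p = 0.0153 by limma) and Cdkn1a (p21) by 2.22 (SE 0.16, adjusted p = 0.00663 by limma). Cdkn1a was at 9.34 and 9.29 on the K14CREER arrays and 11.58 and 11.50 on the InvCREER arrays. Of all genes tested, 1.33% were called. The other 4 inhibitors had lower means and were not called. Of these, 3 did not overlap (24.1% of all genes tested), with Cdkn2d lowest at -0.77. The 6 had a median of -0.41. The lists were not tested against each other.

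**Figure D5:**
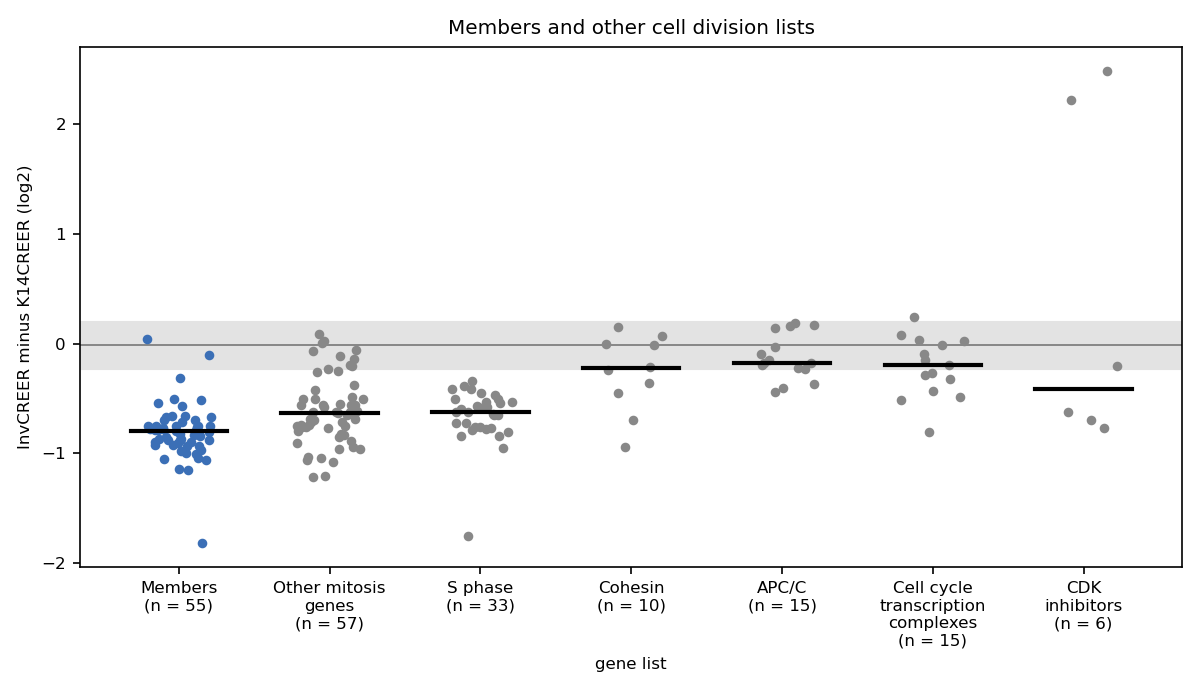
Difference InvCREER minus K14CREER in log2 units for each tested gene of the members (blue, n = 55) and of 6 other cell division lists (grey); black bars are list medians and the grey band is the middle 50% of all genes tested. The members centre on -0.80, other mitosis genes on -0.63, S phase on -0.62 and the APC/C on -0.18, while Cdkn1a and Cdkn2b stand at 2.22 and 2.49.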

How the data were processed

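The 4 arrays were compared as 2 InvCREER against 2 K14CREER. The deposited values are log2 signals per probe set. The submitters' processing notes name RMA and Affymetrix Expression Console 1.1. RMA sets arrays to a common distribution (medians 5.41 to 5.44) and compresses differences of dim and very bright probe sets. The number of arrays limits the precision.

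Of 45037 non-control probe sets those with a mean of at least 5.42, the median, were tested (22519) with limma 3.58.1 in R 4.3.3, with a mean-variance trend, 2-sided. A gene was represented by its brightest tested probe set with 1 symbol from the platform annotation, updated by Entrez number. An exact permutation test of 2 against 2 cannot go below p = 0.333.

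The members, lists and tests were chosen with earlier results of these data known. Array values are given for the 4 largest and 2 smallest differences of each step and 7 well-known members (Ccnb1, also chosen, was not analysed). Up to 3 genes are named per other list. Alternatives changed the scaling, the filter, the variance model, weights, the block, the probe set, the threshold or left out 1 array. Figures were drawn with matplotlib 3.10.9.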

Additional observations from a re-analysis of the deposited data

How the results depend on the processing

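The median difference of the members was -0.82 to -0.79 in the settings that kept all arrays, and -1.06 to -0.57 when an array was left out. The number of members called ran from 0 to 8 when an array was left out: 3 without InvCREER 1 (Birc5, Mki67 and Smc4) and 8 without InvCREER 2, and probe sets called ran from 82 without K14CREER 1 and 143 without its partner to 499 without InvCREER 1 and 981 when InvCREER 2 was dropped. Such fits take the spread of the complete line for the single array left. With the stricter filter 405 probe sets and 2 members (Birc5 and Ube2c) were called, with quantile normalization 288 probe sets and 1 member (Birc5), with the mean of probe sets 450 genes and 3 members (Birc5, Smc4 and Ube2c), and at an adjusted p under 0.1 692 probe sets and 4 members. Without the variance trend 122 probe sets were called. The arrays share only a number in the titles: number 1 minus number 2 correlated at 0.38 between the lines over tested probe sets, and with the replicate block 1390 probe sets and 33 members were called. With an array left out Foxm1 ran from -0.10 (without InvCREER 1; -0.06 without K14CREER 2) to 0.18, Cks1b from -0.21 to 0.01 and Pttg1 from -0.68 to 0.06, the upper ends of the last 2 without K14CREER 2. Averaging the probe sets of a gene put Foxm1 at -0.29. The cause was not tested.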
